A study of Sus scrofa with 6 samples.

Results

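The genes described here are 10 genes of the steroid and peptide hormone output of the testicular Leydig cell: INSL3, CYP17A1, CYB5A, STAR, CYP11A1, HSD3B1, HSD17B3, LHCGR, NR5A1 and SCARB1. They were chosen by name and matched to the count data by Ensembl identifier or pig symbol. Of the 10, 8 were matched to one of the 25149 genes counted, 7 had at least 1 count, and all 7 of these passed the filter on low counts and were tested. STAR and HSD3B1 were not matched and are not analysed here.

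Counts came from bulk RNA sequencing of wild-type neonatal pig Sertoli cells (NPSC), cells isolated by enzyme digestion and filtration from the pooled testes of litters a few days old and grown as a monolayer in DMEM with fetal bovine serum. Part of the medium was removed from every plate, and baseline NPSC (3 plates) received an equal volume of DMEM in its place. Complement NPSC (3 plates) spent 90 min in the remaining medium mixed with an equal volume of pooled human serum whose complement was preserved. Each plate gave 1 library, and the study asked which genes change when the cells meet xenogeneic complement; serum as a whole was added to 1 condition, so complement and the other serum components cannot be told apart. The labels name the cells as Sertoli cells and the tissue as testis, and the testes came from 3 litters. Neither the labels nor the study's methods say which plate held cells of which litter, so p-values measure the spread between plates, part of which may be technical.

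Leydig cells lie between the seminiferous tubules and make the androgens of the testis. Luteinizing hormone binds LHCGR on their surface and raises cyclic AMP, cholesterol is brought to the mitochondrion by STAR and cut to pregnenolone by CYP11A1, and HSD3B1, CYP17A1 and HSD17B3 carry the steroid on to testosterone. SCARB1 takes up cholesterol from high-density lipoprotein, CYB5A assists the androgen-forming step of CYP17A1, and NR5A1 is the nuclear receptor that switches on most of these genes. INSL3 is a peptide hormone of fetal and adult Leydig cells that guides descent of the testis. Neonatal boars are known for large, active fetal-type Leydig cells.

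Library totals ranged from 3641518 to 8371923 counts. The labelled cell type was checked with 12 Sertoli cell markers, of which 10 were matched and tested. CLDN11, a tight junction protein of the blood-testis barrier, lay at 291 to 567 CPM (counts scaled to library size by TMM, the trimmed mean of M-values, per megacount) and INHA, the inhibin alpha subunit, at 242 to 526 CPM, while the Sertoli transcription factor SOX9 lay at 164 to 307 CPM and the Sertoli hormone AMH is not analysed here. Libraries differed in how densely counts fell on 48 olfactory receptor genes, which are genes of the nasal epithelium. This density was 2.15, 1.20 and 1.18 CPM per kb of exon in baseline replicates 1 to 3, and 4.01, 4.43 and 1.51 in complement replicates 1 to 3. Multiplied by the exon length of a gene it gives an expected background, which is printed below as a share of the counts of each of the 7 genes and which is an average over genes.

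Among the 7 counted genes INSL3 stood far above the others, CYP17A1, SCARB1 and CYB5A formed a middle group, and HSD17B3, NR5A1 and LHCGR followed. After complement exposure the mean of each of the 7 was lower than at baseline, at 59.0% to 94.0% of the baseline level in the fit. The libraries of the conditions did not overlap, with complement lower, for 5 of them (8.14% of all tested genes). With library totals this held for 2 (5.43% of all tested genes), and after subtraction of the expected background for 3 (7.74%). None of the 7 was called by edgeR after adjustment, and most other genes with as little expected background as INSL3, CYP17A1 and CYB5A also had lower values in complement NPSC.

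INSL3 (ENSSSCG00000013887) lies on chromosome 2 from 59499016 to 59500655 on the plus strand, in coordinates of the unnamed build of the count tables, with 765 bp of exon in 2 exon blocks. Its raw counts were 5936, 4527 and 6315 in the baseline libraries and 2503, 2212 and 3333 in the complement libraries. Scaled to library size these were 861, 701 and 832 CPM at baseline and 557, 528 and 579 CPM after complement exposure. Every complement library was thus below every baseline library. Per kb of exon, the scale on which genes can be compared with each other, the level was 1043 ± 111 CPM (SD, n = 3) at baseline and 725 ± 33.6 CPM (SD, n = 3) in complement NPSC. INSL3 ranked 41 of 17512 tested genes per kb at baseline, and 28 of 17485 when genes of the mitochondrial genome were left out. Only 0.230% of its counts were expected background, the lowest share of the 7 genes.

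Over the 6 libraries INSL3 averaged 884 CPM per kb. The 3 Sertoli cell markers highest on this scale were INHA at 259, CLDN11 at 213 and SOX9 at 51.5 CPM per kb. ACTA2 and TAGLN, the contractile genes of peritubular myoid cells, averaged 894 and 895 CPM per kb. In libraries named for Sertoli cells, the level of the Leydig cell hormone gene was therefore above that of each of the 10 listed Sertoli cell markers tested. It was close to that of the leading myoid genes. Other genes that Sertoli cells express were not compared, and CLU, which is not on the list, was above INSL3 at baseline (1519 against 1043 CPM per kb). In bulk RNA the number of cells of a type and the amount of RNA per cell cannot be told apart.

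**Figure D1:**
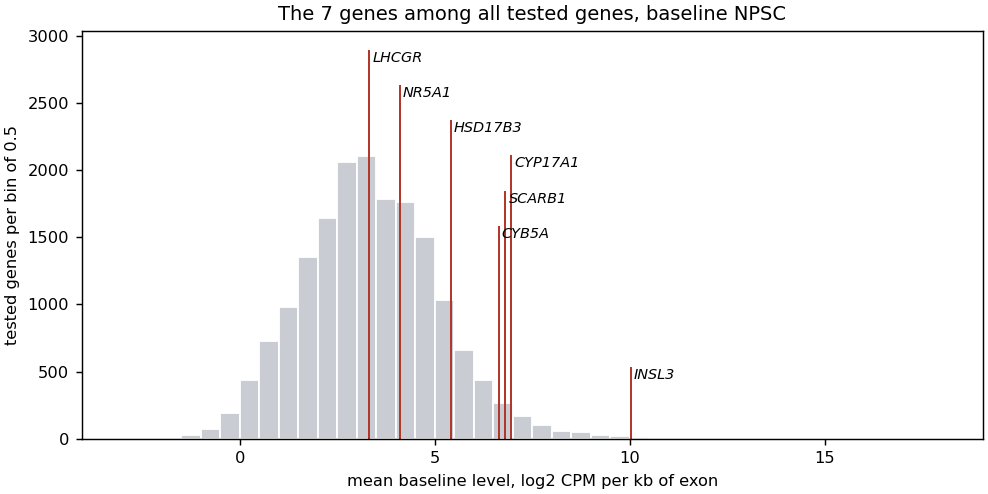
Number of tested genes (y axis) by mean baseline level in log2 CPM per kb of exon (x axis, bins of 0.5), over 3 baseline NPSC libraries. Red lines mark the 7 genes, their height carries no value, and INSL3 lies far to the right at a rank of 41 of 17512 while LHCGR lies near the centre at a rank of 8640.

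LHCGR, the receptor through which luteinizing hormone drives steroid output, was the lowest of the genes counted. Its model (ENSSSCG00000008421, chromosome 3 from 97929127 to 97949707, minus strand) has 1891 bp of exon in 15 blocks. Counts were 133, 102 and 164 at baseline and 64, 54 and 88 in complement NPSC, which gave 19.3, 15.8 and 21.6 CPM against 14.2, 12.9 and 15.3 CPM. The complement libraries were all lower, although baseline replicate 2 and complement replicate 3 lay within 1 CPM of each other. Expected background made up 20.8%, 15.9% and 11.4% of its counts in the baseline libraries and 46.6%, 56.6% and 20.8% in the complement libraries, so in complement replicates 1 and 2 about as many counts were expected from background as remained above it. Its rank per kb was 8640 of 17512, near the middle of all tested genes.

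SCARB1, the cholesterol uptake receptor, had a high level in each library. The gene (ENSSSCG00000009759, chromosome 14 from 30050781 to 30093798, plus strand, 2567 bp of exon in 12 blocks) had 2118, 1897 and 2011 counts at baseline and 1172, 823 and 1527 in complement NPSC. In CPM these were 307, 294 and 265 against 261, 196 and 265. Complement replicate 3 lay level with baseline replicate 3, complement replicate 1 just below it and complement replicate 2 apart from the others at the lowest value, so the groups overlapped. Expected background was 2.01% of its counts.

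The mitochondrial first steps could not be measured. CYP11A1 (ENSSSCG00000025273) is annotated on the unplaced scaffold GL893363.2 from 159079 to 165974 on the minus strand and was listed at 0 in all 6 libraries. All 4 genes of that scaffold were at 0, as were all 2451 genes on the 1429 unplaced scaffolds of the tables, whereas 21859 of the 22698 genes on chromosomes and the mitochondrial genome had at least 1 count. The 0 of CYP11A1 therefore gives no level of its RNA.

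CYP17A1, the P450 that converts pregnenolone and progesterone to androgen precursors, was the second gene of the order. The model (ENSSSCG00000010591) spans chromosome 14 from 123773105 to 123779533 on the minus strand, with 1860 bp of exon in 8 blocks. It had 1786, 1416 and 1638 counts at baseline and 664, 723 and 952 after exposure. The corresponding CPM were 259, 219 and 216 at baseline and 148, 172 and 165 after exposure, without overlap between conditions. Its baseline mean was 124 ± 12.9 CPM per kb (SD, n = 3), a rank of 496, and 1.94% of its counts were expected background.

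CYB5A, the cytochrome b5 that favours androgen formation by CYP17A1, lay close to it. The gene (ENSSSCG00000004875, chromosome 1 from 165902018 to 165937614, plus strand, 1785 bp of exon in 5 blocks) had 1012, 1151 and 1582 counts at baseline and 518, 467 and 830 after exposure. This amounted to 147, 178 and 208 CPM against 115, 111 and 144 CPM. The highest complement library, replicate 3, lay just below the lowest baseline library, replicate 1, so the separation was narrow. Expected background was 2.40% of its counts. The ratio of CYP17A1 to CYB5A per kb was 1.69, 1.18 and 0.994 at baseline and 1.23, 1.49 and 1.101 in complement NPSC, values that overlap.

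HSD17B3, the enzyme of the last step to testosterone, had the lowest ratio of complement to baseline among the 7. Counts were 322, 410 and 350 at baseline and 132, 140 and 169 after exposure. These gave 46.7, 63.5 and 46.1 CPM against 29.4, 33.4 and 29.4 CPM. The highest complement value was well below the lowest baseline value, and baseline replicate 2 was higher than the other two. Its model (ENSSSCG00000010937, chromosome 10, plus strand, 1223 bp of exon in 12 blocks) runs from 29949458 to 30159369 and holds 2 other genes on the same strand: ZNF367 from 30034590 to 30043068, with 328 counts over the 6 libraries, and ENSSSCG00000028111 from 30021455 to 30032153, with 6 counts. Neither shares exon sequence with HSD17B3 (0 bp). The ratio of CYP17A1 to HSD17B3 per kb was 3.65, 2.27 and 3.08 at baseline and 3.31, 3.40 and 3.70 after exposure, and the complement values lay inside or just above the baseline range.

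NR5A1, the nuclear receptor above the pathway, is also made by Sertoli cells and so does not mark Leydig cells alone. The gene (ENSSSCG00000005588, chromosome 1 from 299120563 to 299135428, plus strand, 2188 bp of exon in 5 blocks) had 277, 227 and 286 counts at baseline and 173, 126 and 216 in complement NPSC. In CPM these were 40.2, 35.1 and 37.7 against 38.5, 30.1 and 37.5. Complement replicates 1 and 3 lay inside the baseline range and the groups overlapped. Expected background was 12.5% of its counts.

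Per kb of exon, the baseline order was INSL3, CYP17A1, SCARB1, CYB5A, HSD17B3, NR5A1 and LHCGR. INSL3 was 8.39 times as high as CYP17A1, CYB5A 2.34 times as high as HSD17B3, HSD17B3 2.47 times as high as NR5A1, and NR5A1 1.72 times as high as LHCGR. At each of these 4 steps the baseline libraries of the neighbours did not overlap, and the order held in 6 of 6 libraries. CYP17A1 and SCARB1 differed by 1.11 times and SCARB1 and CYB5A by 1.13 times, less than the spread between libraries, and their order held in 4 and 5 of the 6 libraries. INSL3 alone made up 69.2% to 73.4% of the summed level of the 7 genes per kb, and its ratio to CYP17A1 was 8.08, 7.77 and 9.37 at baseline and 9.17, 7.44 and 8.51 in complement NPSC.

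**Figure D2:**
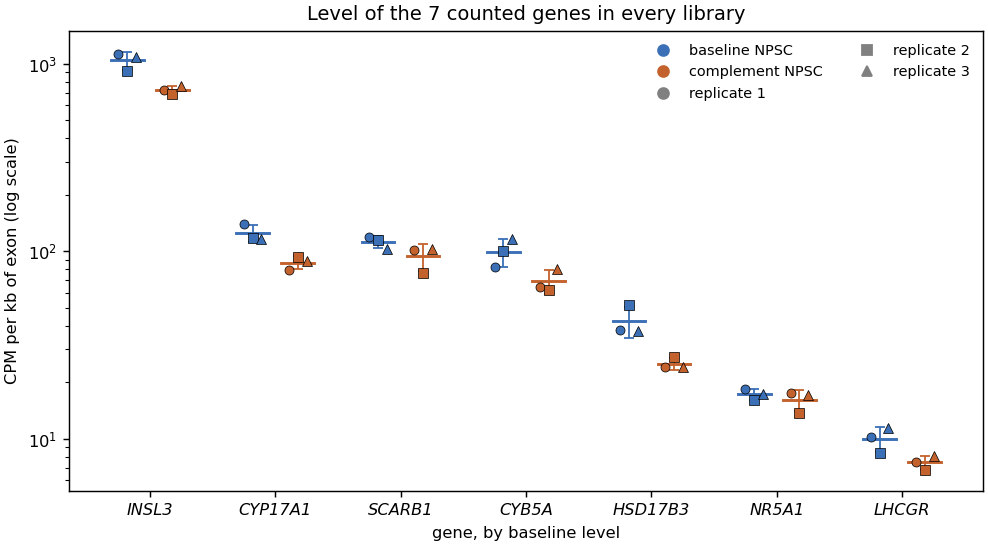
Level of each of the 7 counted genes in CPM per kb of exon (y axis, log scale) in 3 baseline NPSC and 3 complement NPSC libraries. Points are libraries, horizontal lines are means and error bars are SD, and the plot shows the 8.39-fold step from INSL3 to CYP17A1 and the near-equal levels of CYP17A1, SCARB1 and CYB5A.

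The baseline plates did not rank the genes alike. INSL3, CYP17A1, SCARB1 and NR5A1 were highest in baseline replicate 1, CYB5A and LHCGR in baseline replicate 3, and HSD17B3 in baseline replicate 2. CYB5A was lowest in the replicate where INSL3 and CYP17A1 were highest.

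Complement NPSC were compared with baseline NPSC by edgeR's quasi-likelihood F-test over all 17512 tested genes, with Benjamini-Hochberg adjustment. For HSD17B3 the log2 fold change was −0.76 with an SE of 0.20 and an adjusted p of 0.261 in edgeR, at 59.0% of its baseline level. For INSL3 it was −0.52 with an SE of 0.26 and an adjusted p of 0.342 in edgeR, at 69.5% of baseline. CYP17A1 (−0.51, SE 0.21) and CYB5A (−0.52, SE 0.22) had adjusted p-values of 0.301 and 0.304 in edgeR. INSL3, CYP17A1, CYB5A and HSD17B3 thus had lower means in complement NPSC without any passing the threshold of 0.05.

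The log2 fold change of LHCGR was −0.42, with an SE of 0.25 and an adjusted p of 0.400 in edgeR. For SCARB1 it was −0.26 (SE 0.23, adjusted p = 0.538, edgeR) and for NR5A1 −0.09 (SE 0.19, adjusted p = 0.802, edgeR). The difference for NR5A1 was smaller than its SE, and its sign turned with upper-quartile normalization and after subtraction of the expected background (0.02 in both). The genes of signal reception, cholesterol uptake and transcriptional control thus did not pass the test either.

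Of the 7 genes, 0 were called at an adjusted p under 0.05, beside 18 of 17512 tested genes (0.103%). At an unadjusted p under 0.05 in edgeR, 3 were lower in complement NPSC (HSD17B3, CYP17A1 and CYB5A), against 4.28% of all tested genes. The Wald test of DESeq2 also called 0 of the 7, beside 43 genes higher and 20 lower among 21859 genes. The groups did not overlap, with complement NPSC lower, for 5 genes (INSL3, CYP17A1, CYB5A, HSD17B3 and LHCGR), against 8.14% of all tested genes. An exact two-sided permutation test of 3 against 3 libraries cannot give a p below 0.1. The median log2 fold change was −0.51 over the 7 genes and 0.02 over all tested genes.

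The separation depended on the scaling. With CPM by library totals, 2 of the 7 genes did not overlap (CYB5A and HSD17B3, against 5.43% of all tested genes), and after subtraction of the expected background 3 did not (CYB5A, HSD17B3 and LHCGR, against 7.74%). INSL3 after subtraction was 935, 670 and 810 CPM at baseline and 727, 731 and 575 CPM in complement NPSC, which overlap. HSD17B3 and CYB5A were therefore the genes whose complement libraries lay below all baseline libraries on each of the 3 scales.

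Expected background also moved with the fold change over all genes. Among the 749 tested genes with at most 2.5% expected background, where INSL3, CYP17A1, CYB5A and SCARB1 belong, the median log2 fold change was −0.34 (quartiles −0.46 and −0.19), 89.2% of genes were below 0, and the groups did not overlap with complement lower for 17.8%. In this band 14.3% of genes had a lower log2 fold change than INSL3, 14.6% than CYB5A, 16.3% than CYP17A1 and 65.2% than SCARB1. Most genes of like background were thus also lower in complement NPSC, and SCARB1 lay above the median of its band.

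HSD17B3, with 6.0% expected background, lay further out. Among the 2662 genes with 5% to 10% expected background the median log2 fold change was −0.22, the groups did not overlap with complement lower for 14.9%, and 1.09% of genes had a lower value than HSD17B3. LHCGR and NR5A1 belong with 5600 genes at 10% to 25%, whose median was −0.04; 8.88% of these had a lower value than LHCGR and 43.9% a lower value than NR5A1. Over 50% expected background the median was 0.59. The part of background in the differences of single genes was not tested beyond the fits given next.

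**Figure D3:**
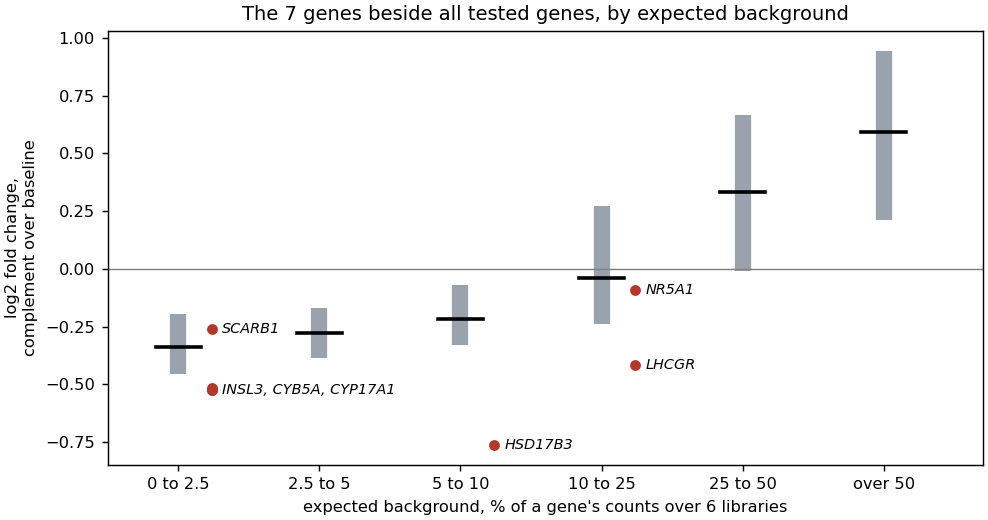
Log2 fold change of complement over baseline NPSC (y axis) for all tested genes in 6 bands of expected background in percent of a gene's counts (x axis). Grey bars span the quartiles, black lines are medians and red points are the 7 genes; the medians run from −0.34 in the lowest band to 0.59 in the highest, and HSD17B3 lies furthest below its band.

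With the expected background subtracted from the counts, the log2 fold change was −0.25 for INSL3, −0.27 for CYP17A1, −0.29 for CYB5A and −0.02 for SCARB1. For HSD17B3 it was −0.60 (adjusted p = 0.474, edgeR), and LHCGR moved the other way to −0.68 (adjusted p = 0.509, edgeR). With the olfactory receptor density of each library as a covariate, INSL3 and CYP17A1 stayed at −0.52 and −0.57 while CYB5A was at −0.22 and HSD17B3 at −0.74. HSD17B3 was the gene with an unadjusted p under 0.05 in the main fit and in each of the 15 alternatives. In 1 of these, without complement replicates 1 and 2, the complement condition held 1 library, which is assumed to vary like the baseline libraries. When single libraries were left out, the adjusted p of HSD17B3 was under 0.05 without baseline replicate 1 (0.0451, edgeR) and without complement replicate 3 (0.0455, edgeR), and that of CYB5A without complement replicate 3 (0.0468, edgeR).

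**Figure D4:**
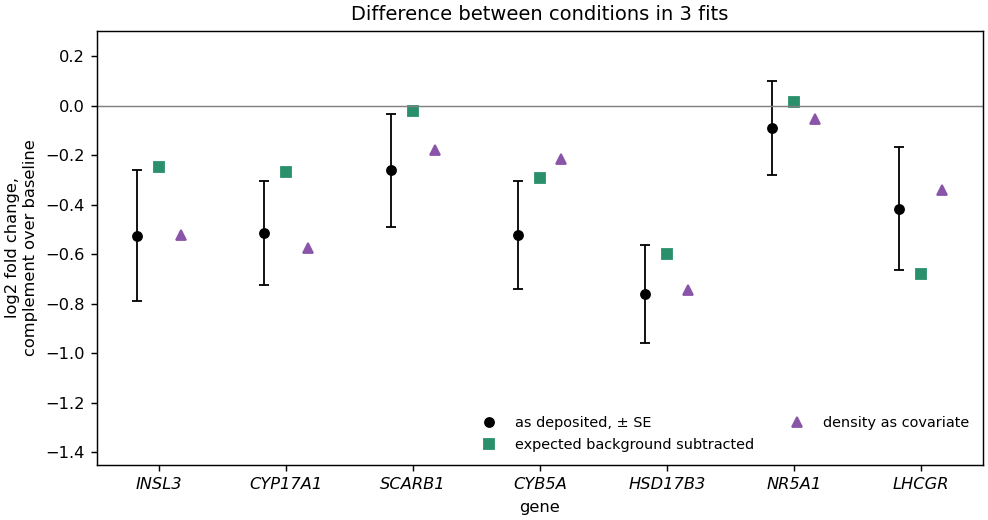
Log2 fold change of complement over baseline NPSC (y axis) for the 7 genes in 3 fits of the 6 libraries, with the SE of the fit to the counts as deposited. HSD17B3 lies between −0.76 and −0.60 in all 3 fits, while SCARB1 and NR5A1 lie at −0.02 and 0.02 after subtraction of the expected background.

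The genes were then set against the Sertoli cell markers of the same library, a ratio in which library size cancels. Summed over the 10 markers, the level was 1270 to 1557 CPM at baseline and 896 to 1008 CPM in complement NPSC, without overlap, and the median log2 fold change of the markers was −0.44. The baseline means of CLDN11, INHA and SOX9 were 557, 429 and 228 CPM, and the next highest marker, WT1, was at 80.7 CPM. CLDN11, INHA and SOX9 thus weigh most in the sum, and CLDN11 and INHA were lower in complement NPSC without overlap. INSL3 counts were 67.8%, 45.0% and 62.0% of the marker counts at baseline and 55.2%, 58.9% and 60.7% in complement NPSC. All 3 complement values lay inside the baseline range.

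On this scale CYP17A1 was at 20.4%, 14.1% and 16.1% at baseline and at 14.7%, 19.2% and 17.3% in complement NPSC. CYB5A was at 11.6%, 11.4% and 15.5% against 11.4%, 12.4% and 15.1%. HSD17B3 was at 3.68%, 4.08% and 3.44% against 2.91%, 3.73% and 3.08%. These 3 genes overlapped between conditions on this scale as well.

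For SCARB1 the share was 24.2%, 18.9% and 19.7% at baseline and 25.9%, 21.9% and 27.8% in complement NPSC. NR5A1 alone did not overlap, at 3.16%, 2.26% and 2.81% against 3.82%, 3.35% and 3.93%, higher in all 3 complement libraries. In CPM NR5A1 itself overlapped between conditions (log2 fold change −0.09, SE 0.19), while the marker sum was lower in complement NPSC. The difference in log2 ratio was 0.44 for NR5A1, −0.21 for HSD17B3 and between 0.02 and 0.27 for the other 5 genes. Exact two-sided permutation tests gave p = 0.1, the smallest this design allows, for NR5A1 and 0.2 to 1 for the other 6, and the Benjamini-Hochberg adjusted p over the 7 tests was 0.7 to 1.

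**Figure D5:**
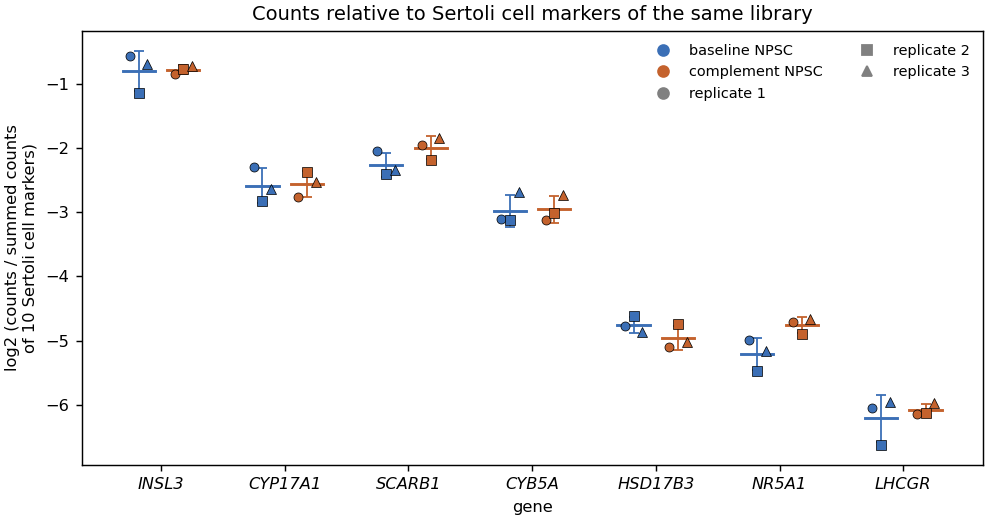
Log2 ratio of each gene's counts to the summed counts of 10 Sertoli cell markers of the same library (y axis), in 3 baseline NPSC and 3 complement NPSC libraries. Points are libraries, lines are means and error bars are SD; the conditions overlap for 6 genes and NR5A1 is higher in all 3 complement libraries.

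Other genes that serve these steps were taken from fixed lists. Of 12 genes that bring cholesterol to the mitochondrion, 10 were matched and 8 tested, 0 were called in edgeR, 4 of the 8 had a log2 fold change below 0, and the median was −0.03. NPC2, the soluble protein that carries cholesterol out of the lysosome, was at 214, 213 and 208 CPM at baseline and 146, 129 and 141 CPM in complement NPSC, without overlap (log2 fold change −0.60, adjusted p = 0.269, edgeR). TSPO, a protein of the outer mitochondrial membrane, named after its values were seen, did not overlap in the other direction, at 5.11 to 6.98 CPM at baseline and 8.34 to 11.9 CPM in complement NPSC, with 21.5% of its counts expected background. The lysosomal membrane partner NPC1 lay at 162 to 178 CPM against 138 to 177 CPM. The mitochondrial channel VDAC1 lay at 167 to 259 CPM against 147 to 217 CPM. ACBD3, like HSD11B1, SREBF2 and MYH11 of the lists below, is on an unplaced scaffold and gave no level.

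Of 6 electron donors of the steroidogenic P450s, 2 were matched and tested, and 0 were called. CYB5R3, the reductase of cytochrome b5, lay at 221 to 284 CPM at baseline and 163 to 243 CPM in complement NPSC, and FDXR, which feeds electrons to the mitochondrial P450s, at 35.4 to 57.1 against 31.6 to 53.2 CPM. The median log2 fold change of both was −0.22. Among 18 other steroid-converting enzymes, 9 were tested with 0 called and a median of −0.04. HSD17B12 lay at 53.8 to 70.0 CPM against 40.8 to 55.6 CPM, SRD5A1, which reduces testosterone to dihydrotestosterone, at 54.7 to 74.9 against 60.1 to 72.6 CPM, and HSD17B10 at 19.7 to 29.3 against 17.2 to 24.1 CPM. Of the 4 genes of the adrenal cortex, 1 was tested: CYP21A2 lay at 5.53 to 21.5 CPM at baseline and 11.6 to 27.4 CPM in complement NPSC (median of the list 0.47), well below CYP17A1.

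Downstream of LHCGR, 11 of 18 listed genes of cyclic AMP signalling were tested, 0 were called, 6 had a log2 fold change below 0 and the median was −0.08. PRKAR1A, a regulatory subunit of protein kinase A, lay at 150 to 214 CPM against 112 to 175 CPM. The phosphodiesterase genes PDE8A and PDE4B lay at 95.8 to 136 against 88.8 to 123 CPM and at 74.7 to 95.3 against 67.9 to 171 CPM. The conditions overlapped for these 3 genes.

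Of 18 transcription factors that act on steroidogenic promoters, 13 were tested and 1 was called. JUNB, a subunit of the AP-1 factor, was at 193, 195 and 186 CPM at baseline and 483, 408 and 653 CPM in complement NPSC. It rose by 1.43 on the log2 scale, with an SE of 0.25 and an adjusted p of 0.0455 in edgeR, and was called in 12 of 16 fits. FOS, another AP-1 subunit, lay at 101 to 231 CPM against 120 to 178 CPM and overlapped.

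GATA4, a factor shared by Leydig and Sertoli cells, was at 184, 212 and 223 CPM at baseline and 138, 88.5 and 139 CPM in complement NPSC, without overlap (log2 fold change −0.76, adjusted p = 0.267, edgeR). Its relative GATA6, named after its values were seen, was at 104, 125 and 122 against 70.8, 55.8 and 75.2 CPM (−0.80, adjusted p = 0.256, edgeR). DESeq2's Wald test called GATA6, with an adjusted p of 0.0379. Of the 13 factors 6 had a log2 fold change below 0, and the median was 0.00.

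Receptors for the products of Leydig cells were low. RXFP2, the INSL3 receptor, lay at 3.56 to 5.88 CPM at baseline and 6.25 to 13.1 CPM in complement NPSC, and the estrogen receptor GPER1 at 14.1 to 18.4 against 14.4 to 16.9 CPM. Expected background made up 59.7% of the counts of RXFP2 and 30.7% of those of GPER1. Of the 5 tested, 0 were called, and their median log2 fold change was 0.37. At baseline the receptor of INSL3 was thus among the low genes of these libraries.

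In the list of the interstitial progenitor and fetal Leydig lineage, 9 of 14 genes were tested, 0 were called, 5 had a log2 fold change below 0 and the median was −0.22. PDGFRA, a receptor of interstitial progenitors, lay at 141 to 261 CPM against 121 to 234 CPM. NR2F2, the progenitor nuclear receptor COUP-TFII, was at 106, 130 and 173 CPM at baseline and 60.8, 62.5 and 108 CPM in complement NPSC (log2 fold change −0.82, adjusted p = 0.267, edgeR). Complement replicate 3 lay inside the baseline range, and with the olfactory receptor density as a covariate the value was −0.28. NR2F2 was called in 3 of the 16 fits, among them the fit without complement replicate 3 (−1.18, adjusted p = 0.0382, edgeR).

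At an unadjusted p under 0.05 in edgeR, 1 gene was higher and 1 lower in the cholesterol list, 1 higher and 2 lower among the transcription factors, 1 higher among the receptors, and 1 higher and 2 lower in the lineage list; the other lists of the pathway had 0. Over all tested genes these shares were 10.9% higher and 4.28% lower. The Wald test of DESeq2 called JUNB and GATA6 and no other gene of these lists.

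Markers of the other cells of the testis were counted in the same libraries, and their part in the results was not tested. The Sertoli cell markers CLDN11 (−0.63, adjusted p = 0.293, edgeR) and INHA (−0.73, adjusted p = 0.269, edgeR) were among the 4 of 10 whose groups did not overlap with complement lower, against 8.14% of all tested genes. The list held values on both sides of 0: 4 of the 10 had a log2 fold change above 0, and the groups of 1 (KRT18, named after its values were seen, at 13.8 to 19.5 CPM against 20.7 to 29.8 CPM) did not overlap with complement higher, against 8.95% of all tested genes. The 5 tested myoid markers summed to 2653 to 3932 CPM at baseline and 2092 to 3860 CPM in complement NPSC (median log2 fold change −0.14), and ACTA2, TAGLN and SMTN had the highest levels per kb of exon. The 6 endothelial markers summed to 549 to 860 against 395 to 938 CPM (−0.18), with PECAM1, ESAM and EGFL7 highest per kb. The 8 germ cell markers summed to 101 to 111 against 82.9 to 135 CPM (0.01), with UCHL1, DND1 and NANOS2 highest per kb, and the 6 macrophage markers to 88.9 to 124 against 72.1 to 119 CPM (−0.02), with CD68, C1QA and CD14 highest per kb. In edgeR and in DESeq2 0 genes of these marker lists were called; at an unadjusted p under 0.05 in edgeR, 2 of 10 Sertoli cell markers were higher and 4 lower, and 1 of 6 macrophage markers was lower, against 10.9% of all tested genes higher and 4.28% lower. The 7 Leydig cell genes summed to 1506 to 1679 against 1084 to 1236 CPM, a sum that includes NR5A1, which Sertoli cells also make. How far each of the 7 is particular to Leydig cells was not tested. Of the sums given, those of the Leydig and Sertoli cell genes did not overlap between conditions.

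The genes whose log2 CPM followed INSL3 most closely over the 6 libraries, among 8547 genes with a symbol and a mean of at least 10 CPM, were ADAMTS5 (Pearson's r 0.997), TRNAU1AP (0.992), SERINC4 (0.991), TBX2 (0.979) and HPSE (0.978). For CYP17A1 they were DHRS4 (0.979), EXTL2 (0.968), CAP2 (0.963), CXXC1 (0.960) and SLC25A4 (0.957). The closest gene to INSL3, the matrix protease gene ADAMTS5, had a mean of 36.1 CPM at baseline and 26.1 CPM in complement NPSC. With 6 points that share conditions and library depth, these values are a description only.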

How the data were processed

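RNA of 6 plates (3 baseline, 3 complement NPSC) was sequenced, and raw counts were deposited by the authors for each gene, with exon positions and summed exon length. The submitters' processing notes name Trimmomatic 0.36, the aligner STAR 2.5.2b and featureCounts of Subread 1.5.2; genome build and strand setting are not given in the sources used here. Symbols came from Ensembl and RefSeq name tables, which paired 11804 identifiers. Counts were fitted with edgeR 4.0.16 in R 4.3.3 (filterByExpr, TMM, quasi-likelihood F-test, Benjamini-Hochberg over 17512 genes, threshold 0.05) without covariates, after a test on simulated data. CPM used TMM library sizes, and log2 CPM a prior count of 2. The expected background is exon length multiplied by the counts per bp over 48 olfactory receptor genes (45945 bp of exon). The alternatives were DESeq2 1.42.0 (Wald test, and its size factors in edgeR), upper-quartile normalization, 2 other filters, a replicate block, leaving out libraries, background subtraction and a density covariate. Named genes are all members, per list the 3 highest per kb and those called, the 5 most like INSL3 and CYP17A1, and overlapping genes. Members and lists were chosen with earlier results of these data known. Totals of 3641518 to 8371923 limit precision for genes such as LHCGR. Some genes of the lists are not reported here.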

Additional observations from a re-analysis of the deposited data

How the results depend on the processing

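For 6 of the 7 genes the log2 fold change stayed below 0 in the main fit and all 15 alternatives; for NR5A1 it was 0.0175 with upper-quartile normalization and 0.0154 after background subtraction. Over the 16 fits it ranged from −0.63 to −0.25 for INSL3, −0.58 to −0.27 for CYP17A1, −0.68 to −0.22 for CYB5A, −0.86 to −0.60 for HSD17B3, −0.68 to −0.31 for LHCGR and −0.36 to −0.02 for SCARB1. Upper-quartile normalization moved the median of all genes to 0.13. Among 36 other named list genes, 22 changed sign in some fit. Without overlap and lower were 5 of the 7 genes (8.14% of all tested genes), 2 with library totals (5.43%) and 3 after subtraction (7.74%). Leaving out 1 library gave 0 to 2 of the 7 called, 0 to 10 genes of the pathway lists (1 in the main fit), 0 to 2 cell type markers (0 in the main fit), and over all genes 8 to 1155 higher and 0 to 700 lower (16 and 2 in the main fit). The highest of these counts came without complement replicate 3, and without baseline replicate 1 there were 270 higher and 57 lower. Without both complement replicates 1 and 2, which leaves 1 complement library with the spread taken from baseline, there were 26 higher and 1 lower.

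In pathway lists DESeq2's size factors gave 0 and the Wald test 2 calls. Over all genes the Wald test gave 43 higher and 20 lower, no filter 25 and 6, subtraction 30 and 1, the covariate 60 higher, upper-quartile normalization 0 lower and at least 10 counts in every library 1 lower. The cause was not tested. Whether the replicate numbers pair the plates cannot be told, and the main fit took them as unpaired. Deviations of same-numbered libraries correlated at 0.46, 0.03 and 0.48. For replicates 1 and 3 the same number gave the highest correlation in both conditions. Baseline replicate 2 correlated best with complement replicate 3 (0.07), and complement replicate 2 with baseline replicate 1 (0.28). With a replicate block, 2 of the 7 genes were called (HSD17B3, adjusted p = 0.000502, and CYB5A, 0.0434, edgeR), 7 genes of the pathway lists, 7 markers, and 1871 higher and 644 lower of all genes. Depth limits LHCGR, with 54 to 164 counts per library.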
